A study of Mus musculus with 2 samples.

Results

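Leukocytes with UMIs of Plac8, Lyz2, Ccr2 or MHC class II genes and with almost no complement C1q were examined in the leaflets of the mouse mitral valve at E17.5, late in gestation. A UMI is a molecular tag that marks 1 captured RNA molecule. Barcodes were kept that showed 500 or more genes, 1000 or more UMIs and a mitochondrial share under 20%, and members were those in which Plac8, Lyz2, Ccr2, H2-Aa and H2-Ab1 together had at least 4 UMIs. They also had at most 2 UMIs of C1qa, C1qb and C1qc, under 20 UMIs of S100a8 and S100a9, at most 2 UMIs of Pecam1, Cdh5 and Egfl7, and at least 1 UMI of Ptprc, which encodes the pan-leukocyte antigen CD45. The rule selected 186 of 17162 kept barcodes, 102 in the mutant library and 84 in the control library.

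The mutant library came from Nfatc1-Cre, Dicer loxp/loxp embryos and the control library from wild type embryos, with 3 to 4 hearts pooled for each genotype and 1 library per genotype. Leaflets were dissociated with 0.05% trypsin, and cells were sorted after staining with a dye for dead cells. Nfatc1 is expressed by the endocardium that gives rise to valve tissue, and the labels do not say in which leukocytes, if any, the Cre is active. With 1 library per genotype no difference between genotypes has a replicate check, so no p-value is given, and intervals cover counting error only. The control library is also not stated to carry Cre or the loxP alleles.

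Monocytes are blood leukocytes made from bone marrow or, before birth, fetal liver progenitors, and they enter tissues by way of receptors such as CCR2. The classical kind expresses Ly6C, and the patrolling kind stays along vessel walls. Dendritic cells take up antigen and display its peptides on MHC class II molecules. In embryonic heart valves such cells stand beside resident macrophages, which express C1q and the mannose receptor Mrc1.

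The label "monocytes and dendritic cells" was only partly borne out. Of the 186 members, 24 carried basophil genes, 13 carried lymphocyte genes and 14 carried genes of valve interstitial cells, among 10 subclusters obtained from all genes variable among members. The members are therefore called the Plac8, Lyz2 and Ccr2 leukocytes here. All 102 mutant and all 84 control members reached 4 UMIs by Plac8, Lyz2 and Ccr2 alone, so no member needed an MHC class II UMI to enter.

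The members made up 1.59% of the kept mutant barcodes (95% interval 1.30 to 1.93, 102 of 6403) and 0.781% of the kept control barcodes (0.623 to 0.966, 84 of 10759). Shares and their exact Clopper-Pearson intervals describe these 2 libraries. Among kept barcodes with a UMI of Ptprc the share was 23.3% in the mutant library (19.5 to 27.6, of 437) and 17% in the control library (13.8 to 20.7, of 493), and these intervals overlap. Macrophages, selected by at least 10 UMIs of C1q, were 220 cells or 50.3% of the Ptprc barcodes in the mutant library and 298 cells or 60.4% in the control library. Granulocytes, selected by at least 20 UMIs of S100a8 and S100a9, were 56 in the mutant and 53 in the control library.

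Depth differed between the libraries. Members had a median of 7677 UMIs in the mutant library (range 1423 to 25184) and 4929 in the control library (1319 to 15063), and medians of 2406.5 genes in mutant and 1934 genes in control members. The sums over members were 888699 UMIs in the mutant and 467382 in the control library, so that 3 counts correspond to 3.38 CPM in the mutant and 6.42 CPM in the control members. CPM values are UMIs scaled to a common total and are not per length, since reads come from 3′ ends. The pools also differed in sex: of the mutant members 38 had Xist without Y-linked UMIs, 33 the reverse and 31 were open, whereas of the control members 74 were of the female type, 0 of the male type and 10 open. Within the mutant library the member share was 1.40% of female-type cells (0.993 to 1.92) and 1.41% of male-type cells (0.972 to 1.97), and it was 0.735% of female-type control cells (0.577 to 0.921). The part of depth, pool and sex in differences between the libraries was not tested beyond such within-sex values. The 2 files share 19 barcodes, and 0 of these are members in both.

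Few barcodes lay at the limits of the rule. The summed marker count was exactly 4 in 3 mutant and 1 control members and exactly 3 in 3 mutant and 2 control barcodes that met every other limit. The C1q sum was 0 in 94 of the mutant and 77 of the control members. It was 3 to 9 in 5 mutant and 10 control barcodes just outside.

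The transcription of the MHC class II genes divided the members. H2-Aa and H2-Ab1 encode the alpha and beta chains of the I-A molecule, H2-Eb1 the beta chain of I-E, H2-DMa and H2-DMb1 the peptide exchanger, and Cd74 the invariant chain. All lie on chromosome 17 except Cd74. Their promoters are known to hold an X box and a Y box, which is an inverted CCAAT sequence, through which the coactivator CIITA acts. Of the 17 genes listed for MHC class II presentation, 11 had a promoter in the RefSeq table of GRCm38.p6, with 250 bases before and 50 bases after the start, and 3 of the genes that moved together among members are shown because they hold both letter patterns. Capitals mark GNAACT, as found at the 5′ end of the X box of these genes, and TGATTGG, the Y box, with their starts 30 or 31 bases apart. The first is H2-Aa at chr17:34287774-34288073 on the minus strand, then H2-Eb1 at chr17:34305617-34305916 and H2-DMb1 at chr17:34152941-34153240, both on the plus strand.
H2-Aa: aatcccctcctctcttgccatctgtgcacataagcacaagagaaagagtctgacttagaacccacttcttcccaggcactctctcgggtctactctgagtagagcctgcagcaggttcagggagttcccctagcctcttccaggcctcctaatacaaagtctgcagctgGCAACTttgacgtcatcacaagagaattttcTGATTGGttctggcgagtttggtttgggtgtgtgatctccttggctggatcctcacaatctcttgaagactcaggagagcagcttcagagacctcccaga
H2-Eb1: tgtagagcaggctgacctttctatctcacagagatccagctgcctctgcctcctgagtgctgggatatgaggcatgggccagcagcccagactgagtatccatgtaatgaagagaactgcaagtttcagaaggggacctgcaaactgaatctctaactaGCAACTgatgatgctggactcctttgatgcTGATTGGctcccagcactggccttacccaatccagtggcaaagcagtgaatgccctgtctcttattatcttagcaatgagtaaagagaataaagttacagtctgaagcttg
H2-DMb1: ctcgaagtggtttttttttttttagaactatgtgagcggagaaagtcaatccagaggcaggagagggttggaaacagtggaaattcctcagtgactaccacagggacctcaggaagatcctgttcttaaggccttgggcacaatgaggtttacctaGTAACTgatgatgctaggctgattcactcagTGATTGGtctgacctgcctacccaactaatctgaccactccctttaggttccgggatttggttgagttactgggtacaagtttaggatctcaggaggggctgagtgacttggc

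Searched on either strand, TGATTGG was present in 7.82% of the 32851 promoters of that table and GNAACT in 42.8%. GNAACT followed by TGATTGG on the same strand, with starts at most 50 bases apart, was present in 0.377% of them and in 4 of the 12 promoters of the 11 listed genes, those of H2-Aa, H2-Eb1, H2-DMb1 and H2-Eb2. The patterns do not overlap each other, were chosen after these promoters had been read, and are a description of letters rather than of binding.

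H2-Aa and H2-Ab1 were either abundant in a cell or nearly absent. In the mutant library 12 members had at least 10 UMIs of the pair, 0 had 1 to 9 and 90 had 0. In the control library 14 members had at least 10 UMIs, 6 had 1 to 9 and 64 had 0. The positive cells had 13 to 181 UMIs of the pair in the mutant library (median 60) and 11 to 94 in the control library (median 41). Outside the members, 7 mutant and 8 control Ptprc barcodes had at least 10 UMIs, of which 5 mutant and 6 control barcodes had at least 10 UMIs of C1q. Summed over members, H2-Aa stood at 632 CPM in the mutant and 685 CPM in the control library, against 37.3 CPM in mutant and 81.0 CPM in control macrophages.

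**Figure D1:**
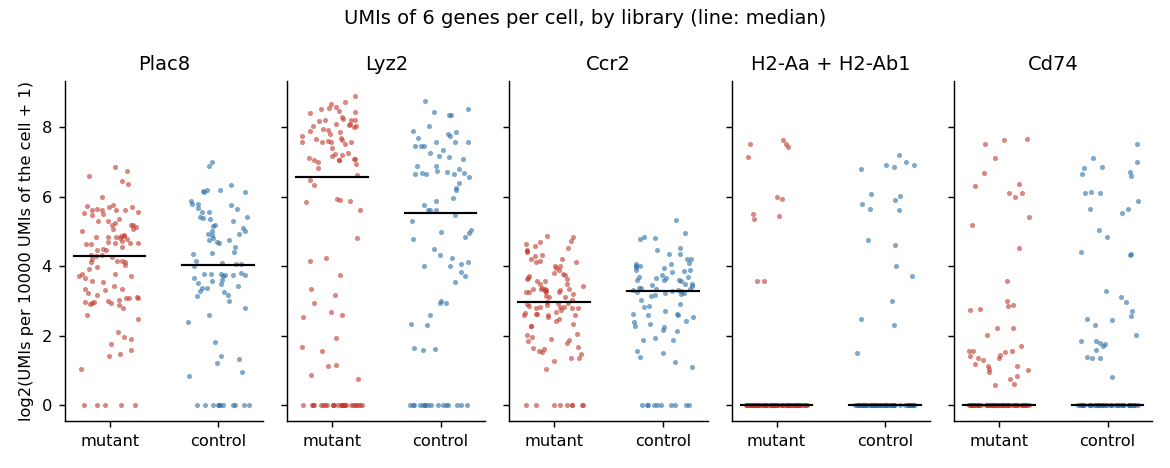
Each point is 1 member, with log2 of the UMIs per 10000 UMIs of the cell plus 1 on the vertical axis, for Plac8, Lyz2, Ccr2, the sum of H2-Aa and H2-Ab1, and Cd74, mutant left of control and the line at the median. The sum of H2-Aa and H2-Ab1 is at 0 in 90 mutant and 64 control members and high in 12 mutant and 14 control members. A further 6 control members have 1 to 9 UMIs of the pair. Cd74 has UMIs in 30 of those 90 mutant and 20 of those 64 control members, and Plac8 and Ccr2 spread over most cells.

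Several other genes of the class II system followed the same cells. H2-Eb1 reached 3577 CPM in the 12 positive mutant members against 1.30 CPM in the 90 without H2-Aa or H2-Ab1, and 3192 CPM in the 14 positive control members against 0 CPM in the 64 without. Cd74 reached 9814 against 101 CPM in the mutant and 9315 against 134 CPM in the control library. H2-DMb1 reached 326 against 14.2 CPM in the mutant and 425 against 8.36 CPM in the control library. Ciita, the class II transactivator, had 11 UMIs in the positive mutant members and 11 UMIs in the positive control members, with 0 in the members without. H2-Eb2 and Cd40 were at 0 UMIs in all members. Other listed genes did not follow these cells: Ctss, the protease cathepsin S, stood at 686 against 938 CPM in the mutant and at 1288 against 1045 CPM in the control library. Cd80, a costimulatory ligand, had 0 UMIs in positive members of either library and 6 UMIs in the members without of each. H2-Oa, of the modulator H2-O, differed by library. It stood at 51.5 against 32.4 CPM in the mutant library. In the control library it followed the positive cells, at 95.9 against 13.9 CPM. Its UMIs in positive members were 6 in the mutant and 7 in the control library.

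Genes outside the MHC class II presentation list also differed between positive members and those without. Xlr, a lymphoid-expressed nuclear protein gene, stood at 197 against 2.59 CPM in the mutant and at 247 against 8.36 CPM in the control library. Wdfy4, needed for cross-presentation of cell-associated antigen, stood at 180 against 24.6 CPM in the mutant and at 192 against 33.4 CPM in the control library. Cst3, the protease inhibitor cystatin C, stood at 16763 against 2094 CPM in the mutant and at 9014 against 2279 CPM in the control library. In the opposite direction, Hp, which encodes haptoglobin, stood at 17.2 against 486 CPM in the mutant and at 0 against 476 CPM in the control library. Gsr, glutathione reductase, stood at 51.5 against 352 CPM in the mutant and at 27.4 against 365 CPM in the control library. The cells were split by the class II genes and not by these, but all are genes of the same few cells and no test was made.

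The subclusters are given by number, and a class name with the ending -like is used where fixed markers led. Numbers of cells are few, and genes that define a subcluster are a description. The heat map of list levels by subcluster shows which lists were high in which.

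**Figure D2:**
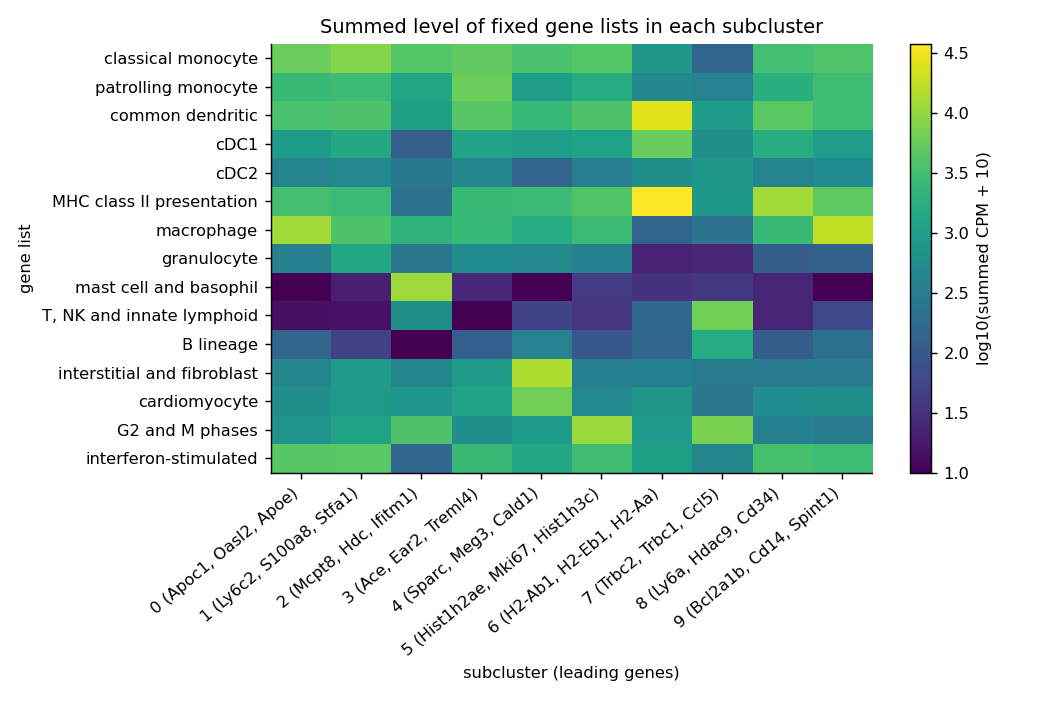
Colour gives log10 of the summed CPM plus 10 of 15 gene lists (rows) in the 10 subclusters (columns, with 3 leading genes each), cells of both libraries summed. The class II and common dendritic lists peak in subcluster 6, the mast cell and basophil list in subcluster 2, the lymphoid list in subcluster 7 and the interstitial list in subcluster 4.

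Subcluster 1, with 21 mutant and 13 control cells, was led by Ly6c2, S100a8, Stfa1 and Hp. It had 9 of 18 classical monocyte markers raised, among them Ly6c2, F13a1 (coagulation factor XIII) and Vcan (versican), but 3 granulocyte and 2 monocyte markers among its 10 leading genes, so it stays unnamed. Ly6c2 stood at 696 CPM in its mutant and 997 CPM in its control cells. The defining classical markers Chil3 and Cd177 were at 0 UMIs in all members of both libraries.

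Subcluster 0, with 20 mutant and 21 control cells, was led by Apoc1, Oasl2, Apoe, Maf and Trem2. It had classical monocyte markers, among them F13a1, Ms4a6c, Ms4a4c and Csf1r, and 5 macrophage markers (Fcgr1, Trem2, Apoe, Maf and Stab1), and stays unnamed. Apoe, an apolipoprotein of tissue macrophages, stood at 12858 CPM in the mutant and 7976 CPM in the control cells of subcluster 0. C1q could not be high in it, since the rule limited it.

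Subcluster 3, patrolling monocyte-like, had 7 mutant and 9 control cells and 7 of 12 patrolling markers. Ace, which encodes angiotensin-converting enzyme, had 10 mutant UMIs and 6 control UMIs, all in subcluster 3. Treml4, a receptor of the TREM family, stood at 732 CPM in its mutant and 310 CPM in its control cells. Csf1r, the receptor for macrophage colony-stimulating factor, stood at 1031 CPM in its mutant and 760 CPM in its control cells, above its level in every other subcluster of the same library.

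Subcluster 6, type 1 conventional dendritic cell (cDC1)-like, had 5 mutant and 8 control cells, all positive for the class II genes. With cells of both libraries summed, it had 11 of 14 cDC1 markers and 7 of 12 common dendritic markers raised. The name was given on that sum and not for each library, and the values that follow bear it out less in the control cells. Clec9a, a receptor for dead cells, had 8 UMIs in 3 of 5 mutant cells and 2 UMIs in 1 of 8 control cells. Irf8, a transcription factor required for this lineage, had 77 UMIs in 4 of 5 mutant and 10 UMIs in 1 of 8 control cells. Naaa, an acid amidase, had 59 UMIs in 5 of 5 mutant and 7 UMIs in 3 of 8 control cells. Cd209a, a lectin of the second conventional type, had 3 UMIs in 1 of 5 mutant and 7 UMIs in 3 of 8 control cells. Summed over its list, cDC1 markers stood at 7207 CPM in the mutant and 3552 CPM in the control cells, and cDC2 markers at 311 CPM in the mutant and 901 CPM in the control cells. The lineage marker Xcr1 was at 0 UMIs in all members, and the cells are 13 in number.

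Subcluster 8, with 4 mutant and 6 control cells led by Ly6a, Hdac9 and Cd34, held 3 further class II-positive cells of each library. It had 0 UMIs of Ciita in either library. Subcluster 5, with 6 mutant and 7 control cells, was led by Hist1h2ae, Mki67 and Top2a, genes of dividing cells, and had 1 class II-positive mutant and 2 positive control cells. Subcluster 9, with 3 mutant and 5 control cells, was led by Bcl2a1b, Cd14 and Spint1 and had 7 of 18 macrophage markers. None of these is named.

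Subcluster 2, basophil-like, had 8 of 12 markers of the mast cell and basophil list raised. Its leading genes were Mcpt8, Hdc, Ifitm1, Prss34, Cyp11a1 and Cpa3. Mcpt8 encodes a protease typical of basophils, Hdc the enzyme that makes histamine, and Cpa3 a granule carboxypeptidase. Subcluster 2 held 19 mutant and 5 control cells, 18.6% of mutant members (11.6 to 27.6) and 5.95% of control members (1.96 to 13.3). Of all kept barcodes these are 0.297% in the mutant library (0.179 to 0.463) and 0.0465% in the control library (0.0151 to 0.108). When the genes at least 2-fold apart between the libraries were left out of the clustering, the same 24 cells formed 1 cluster, again 19 mutant and 5 control cells. Among female-type cells alone the share was 0.369% in the mutant library (0.177 to 0.677) and 0.0496% in the control library (0.0161 to 0.116). Mcpt8 stood at 4796 CPM in its mutant and 4448 CPM in its control cells, and at 0 UMIs in macrophages, granulocytes and every other subcluster. Lyz2 had 2 UMIs in its mutant and 0 UMIs in its control cells, so these cells entered by Plac8 and Ccr2.

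The basophil genes were not spread over the Ptprc cells in the same way as the mast cell genes. Of Ptprc barcodes with at least 4 of the 12 mast cell and basophil markers, 18 of 20 were members in the mutant library and 4 of 16 in the control library. The 12 control cells outside the members had Tpsb2, a mast cell tryptase, in 10 cells and Cma1, a mast cell chymase, in 9 cells, with 4519 CPM of Tpsb2 and 13781 CPM of Cma1. Tpsb2 was at 0 UMIs in the 18 mutant and the 4 control members. In 10 of those 12 control cells and in both mutant cells outside the members the summed rule markers were under 4 UMIs.

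Subcluster 7, T, NK and innate lymphoid-like, had 9 mutant and 4 control cells and 11 of 16 lymphoid markers, led by Trbc2 and Trbc1, constant regions of the T cell receptor beta chain. Its G2 and M phase list stood at 8173 CPM in the mutant and 612 CPM in the control cells. Subcluster 4 had 8 mutant and 6 control cells with 10 of 12 interstitial markers beside Ptprc, a median of 12860 UMIs, and doublet calls in 5 of 8 mutant and 5 of 6 control cells. Outside subcluster 4, 0 mutant and 1 control members were called doublets. Without subclusters 2, 4 and 7 the members number 66 in the mutant library, 15.1% of its Ptprc barcodes (11.9 to 18.8), and 69 in the control library, 14% (11.1 to 17.4). They are then 1.03% of the kept mutant (0.798 to 1.31) and 0.641% of the kept control barcodes (0.499 to 0.811).

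**Figure D3:**
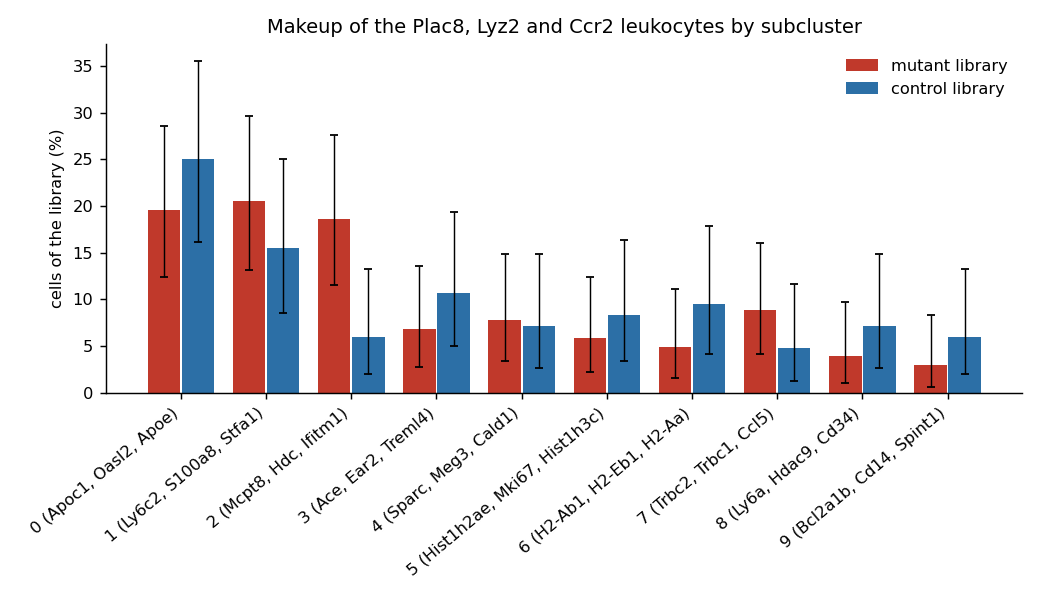
Bars give the percentage of the library's members in each subcluster, named by number and 3 leading genes, mutant left of control, with exact 95% intervals for counting error. Subcluster 2 stands at 18.6% in the mutant and 5.95% in the control library, and the other subclusters lie within each other's intervals.

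Levels of the genes of the rule are given as a description. Plac8, which encodes a small cysteine-rich protein, stood at 2015 CPM in the mutant and 2060 CPM in the control members. Ccr2 stood at 775 CPM in the mutant and 869 CPM in the control members, and Ptprc at 625 CPM in the mutant and 674 CPM in the control members. Lyz2, which encodes lysozyme M, stood at 11247 CPM in the mutant and 7317 CPM in the control members, a log2 ratio of 0.62 (0.56 to 0.68) that was 0.93 without subclusters 2, 4 and 7. Lyz2 stood at 1334 CPM in mutant and 1106 CPM in control macrophages and at 12841 CPM in mutant and 9891 CPM in control granulocytes. In all other kept barcodes it stood at 172 CPM in the mutant and 96.1 CPM in the control library. Within subclusters Lyz2 stood at 20378 CPM in the mutant and 13078 CPM in the control cells of subcluster 0, and at 27661 CPM in the mutant and 22898 CPM in the control cells of subcluster 1. In subcluster 8 it went the other way, with 2460 CPM in the mutant and 3728 CPM in the control cells. Lyz2 lies at chr10:117277331-117282321 of GRCm38, and the part of free RNA and depth was not tested.

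**Figure D4:**
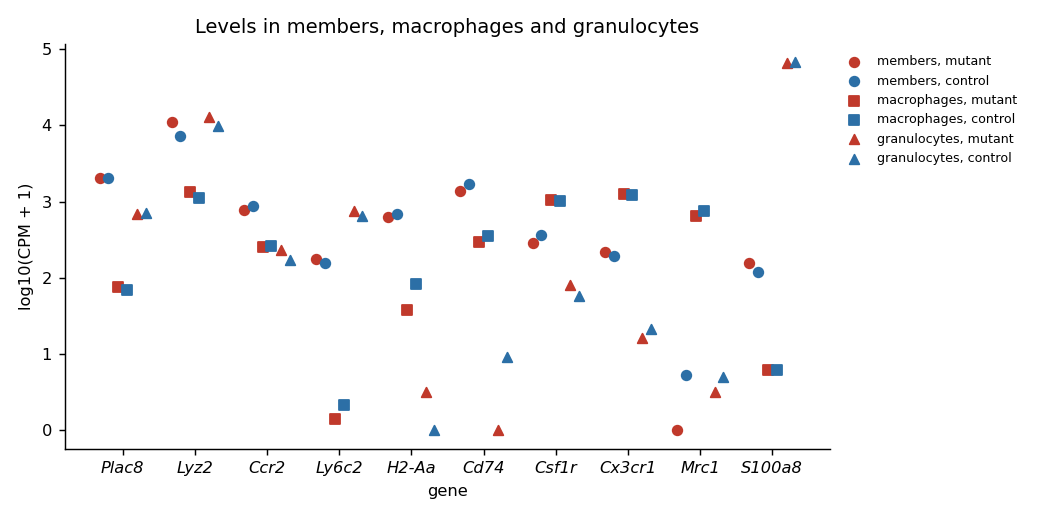
Levels of 10 genes as log10 of CPM plus 1 in the members, the macrophages and the granulocytes, mutant left of control within each. Lyz2 is higher in mutant than in control cells of all 3 groups, and Mrc1 is low in the members. S100a8 is low in the members and high in the granulocytes because S100a8 and S100a9 were used to select both groups.

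Against the macrophages of the same library the members had almost no UMIs of several macrophage genes and lower levels of others. The rule limited C1q in this contrast, so the genes are a description. Mrc1 was at 0 CPM in mutant members against 650 CPM in mutant macrophages and at 4.28 against 764 CPM in the control library. Pf4, a chemokine, was at 3.38 against 1728 CPM in the mutant and at 6.42 against 2097 CPM in the control library. Lyve1, a hyaluronan receptor, was at 1.13 against 186 CPM in the mutant and at 0 against 329 CPM in the control library. Apoe stood at 3996 against 21107 CPM in the mutant and at 4236 against 22280 CPM in the control library. Summed over the macrophage list, subcluster 0 had 14099 CPM in its mutant and 8787 CPM in its control cells, and subcluster 9 had 13049 CPM in its mutant and 20374 CPM in its control cells. Of 3040 genes with a mean of at least 50 CPM, members of both libraries exceeded macrophages 2-fold or more in 125 (4.11%) and fell below them to the same degree in 140 (4.61%). Nothing is read from these counts.

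Between the libraries, most genes of the members lay close together. Of 2992 genes with a mean of at least 50 CPM, 35 (1.17%) had a mutant CPM of 2 times the control value or more and 28 (0.936%) a mutant CPM of 0.5 times or less. The log2 ratios of all these genes had a median of -0.03. With ratios centred by their median over well-counted genes the numbers were 42 higher and 21 lower, and with the mean of per-cell CPM 40 higher and 21 lower. The ranking left out erythroid, mitochondrial, ribosomal protein, sex-linked and unnamed genes and had a guard against free RNA. Of the 12 highest named genes 4 were on the mast cell and basophil list and 2, Trdc and Nkg7, on the lymphoid list. Trbc1, also among the 12, is not on that list. Of the 12 lowest, the 5 with the most negative ratios were Ccl5 and the heart muscle genes Ttn, Ckm, Myh7 and Tnnt2. The plot of log2 ratios for the named genes sets the values over all members beside those without subclusters 2, 4 and 7.

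**Figure D5:**
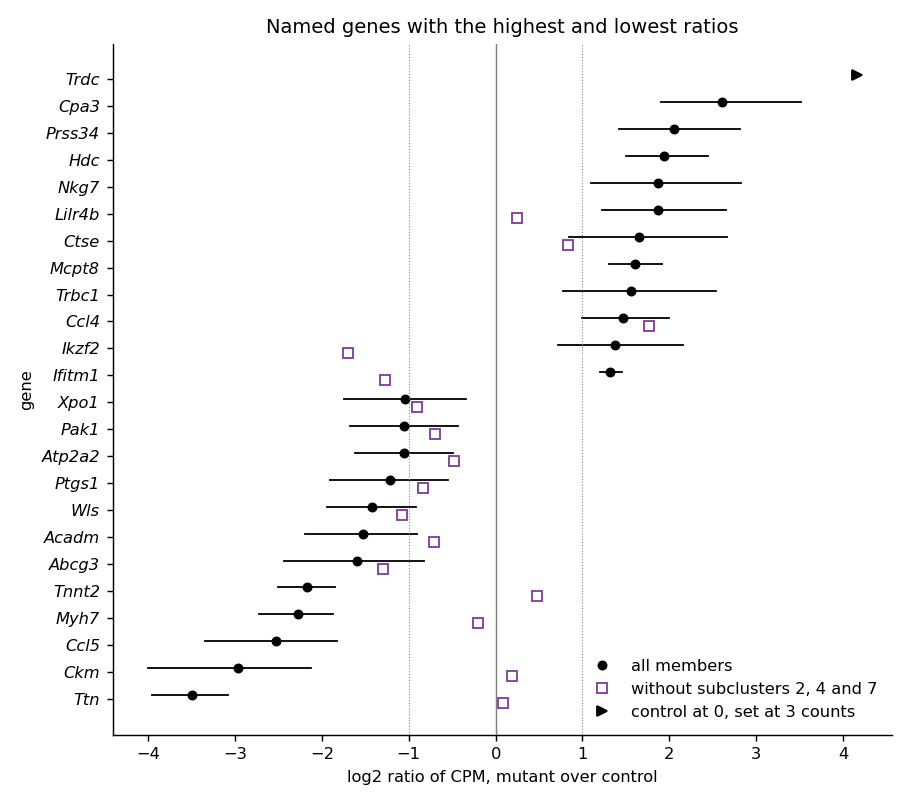
Log2 ratio of CPM, mutant over control, for the 12 genes with the highest and the 12 with the lowest ratios by the naming rule. Circles are all members with exact 95% intervals, squares the members without subclusters 2, 4 and 7 where either library has over 3 UMIs, dotted lines 2-fold, and the triangle is the ratio of Trdc with its control value of 0 set at 3 counts. Ifitm1 and Ikzf2 lie on opposite sides of 0 in the 2 sets, and the muscle genes Ttn, Ckm and Tnnt2 lie between 0.08 and 0.48 in the squares.

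Basophil genes were higher over all members. Mcpt8 had 706 CPM in the mutant and 231 CPM in the control members, a log2 ratio of 1.60 (1.31 to 1.92). Cpa3 had 203 CPM in mutant and 32.1 CPM in control members (2.61, 1.90 to 3.52), Prss34, another granule protease, 190 CPM in mutant and 44.9 CPM in control members (2.05, 1.42 to 2.81), and Hdc 366 CPM in mutant and 94.1 CPM in control members (1.94, 1.5 to 2.45). Ifitm1 had 3265 CPM in mutant and 1303 CPM in control members (1.32, 1.2 to 1.45). Without subclusters 2, 4 and 7, Mcpt8 and Prss34 were at 0 UMIs in both libraries and Ifitm1 was at 43.2 CPM in the mutant and 105 CPM in the control cells. Of the 8 measured genes of the mast cell and basophil list, 7 were higher by 2-fold or more, and the list's median was 1.77. For lists a mean of 10 CPM sufficed, and of the 8078 genes at that level 4.36% were higher and 4.70% lower by the same rule, with a median of -0.04.

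Lymphocyte genes were higher over all members too. Trdc, the constant region of the T cell receptor delta chain, had 102 UMIs in 4 mutant cells and 0 UMIs in the control members, a log2 ratio of 4.16 when the control is set at 3 counts, with an exact lower limit of 3.84. Of these UMIs 44 came from 1 cell. Nkg7, a cytotoxic granule protein, had 113 CPM in mutant and 30.0 CPM in control members (1.87, 1.10 to 2.83), and Trbc1 had 91.1 CPM in mutant and 30.0 CPM in control members (1.56, 0.78 to 2.54). Of the 13 measured genes of the T, NK and innate lymphoid list, 10 were higher by 2-fold or more and 0 lower, the median being 1.32, and 3 of these genes were at 0 in the control members. Ccl5, a chemokine of T and NK cells, was lower at 23.6 CPM in mutant and 139 CPM in control members (-2.53, -3.34 to -1.83), and 63 of its 65 control UMIs came from 1 cell of subcluster 7. The B lineage list had 4 of 6 measured genes higher, a median of 2.48 (1.91 with 2 genes that were at 0 in the control members set to their bound against 3 counts), with Vpreb3, of the surrogate light chain, in 1 mutant cell.

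Other named genes on the higher side were on neither of these lists. Ctse, the endosomal protease cathepsin E, had 90.0 CPM in the mutant and 27.8 CPM in the control members (1.65, 0.84 to 2.66), in 36 mutant and 12 control cells, and 46.9 CPM in mutant and 25.6 CPM in control members without subclusters 2, 4 and 7 (0.83, -0.27 to 2.16). Lilr4b, of the leukocyte immunoglobulin-like receptor family, had 160 CPM in mutant and 42.8 CPM in control members (1.87, 1.22 to 2.65). Without subclusters 2, 4 and 7 it had 24.4 CPM in mutant and 19.9 CPM in control members. Ccl4, a chemokine of activated leukocytes, had 245 CPM in mutant and 87.7 CPM in control members (1.47, 1.0 to 2.0) over all members and 139 CPM in mutant and 39.8 CPM in control members (1.76, 0.97 to 2.74) without those subclusters. In macrophages Ccl4 stood at 457 CPM in the mutant and 462 CPM in the control library. Ikzf2, the transcription factor Helios, had 119 CPM in mutant and 44.9 CPM in control members (1.38, 0.72 to 2.16), in 19 mutant and 9 control cells, with 27 of 106 mutant UMIs in 1 cell. Without those subclusters Ikzf2 stood at 5.63 CPM in mutant and 19.9 CPM in control members (-1.70, -4.40 to 0.31).

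On the lower side, muscle genes came first among the genes ranked, from which the erythroid genes were left out. Ttn, which encodes titin, had 57.4 CPM in the mutant and 653 CPM in the control members (-3.50, -3.96 to -3.08), Myh7 had 73.1 CPM in mutant and 357 CPM in control members, and Tnnt2, cardiac troponin T, had 125 CPM in mutant and 565 CPM in control members. A single control cell of subcluster 4 held 206 of 264 Tnnt2 UMIs and 189 of 305 Ttn UMIs. Without subclusters 2, 4 and 7 Ttn stood at 78.8 CPM in the mutant and 73.9 CPM in the control cells. The cardiomyocyte list had 8 of 9 measured genes lower by 2-fold or more over all members, and 1 of 9 higher and 0 lower without those subclusters, where 4.41% of 7578 genes were higher and 6.11% lower. Erythroid genes, 6 of 6 measured lower, had 15 UMIs in the mutant and 1090 UMIs in the control members, of which 1082 came from 1 cell of subcluster 0. Hba-a1, a hemoglobin alpha chain gene, had 5.63 CPM in the mutant and 689 CPM in the control members (-6.80, -8.57 to -5.70), with 320 of 322 control UMIs in 1 cell.

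Other lower genes had small totals. Abcg3, an ABC transporter at chr5:104935057-104982718, had 25.9 CPM in the mutant and 79.2 CPM in the control members (-1.60, -2.43 to -0.82), in 19 mutant cells with at most 3 UMIs each and 25 control cells with at most 4. It stood at 63.1 CPM in mutant and 72.3 CPM in control macrophages. Wls, the carrier of Wnt proteins at chr3:159839672-159938664, had 65.3 CPM in mutant and 175 CPM in control members (-1.42, -1.94 to -0.92), in 33 mutant and 43 control cells, and 88.2 CPM in mutant and 188 CPM in control members without subclusters 2, 4 and 7. Acadm, an enzyme of fatty acid oxidation, had 40.5 CPM in mutant and 118 CPM in control members (-1.53, -2.19 to -0.91), but 45.0 CPM in mutant and 73.9 CPM in control members without those subclusters (-0.71, -1.58 to 0.14). Ptgs1, the cyclooxygenase COX-1, had 39.4 CPM in mutant and 92.0 CPM in control members (-1.22, -1.91 to -0.55), and Pak1, a kinase, 49.5 CPM in mutant and 103 CPM in control members (-1.05, -1.68 to -0.43). Xpo1, the nuclear exporter, had 39.4 CPM in mutant and 81.3 CPM in control members. Atp2a2, a calcium pump, had 59.6 CPM in mutant and 124 CPM in control members, where 18 of 58 UMIs came from 1 cell. Without those subclusters the log2 ratio was -0.84 for Ptgs1, -0.70 for Pak1, -0.91 for Xpo1 and -0.48 for Atp2a2, all short of 2-fold. Abcg3 was at least 2-fold lower in 11 of 11 alternative settings, Wls in 10 and Xpo1 in 1.

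Without subclusters 2, 4 and 7, 23 of 2943 genes (0.782%) were higher by 2-fold or more in the mutant library and 37 (1.26%) lower. This set was chosen after the subclusters had been seen. Erythroid, mitochondrial, ribosomal protein, sex-linked and unnamed genes were again left out of the ranking. After Ccl4 came Hopx, a homeodomain-only protein gene, and Magohb, of the exon junction complex, each at 75.1 CPM in mutant and 25.6 CPM in control cells (1.49, 0.49 to 2.78). S100a1, a calcium-binding protein gene, had 91.9 CPM in mutant and 34.1 CPM in control cells (1.39, 0.50 to 2.48), and Naaa stood at 182 CPM in mutant and 71.1 CPM in control cells (1.34, 0.71 to 2.05). Gmfg, an actin regulator of leukocytes, had 334 CPM in mutant and 145 CPM in control cells (1.19, 0.75 to 1.68), in 56 mutant and 33 control cells. Mmp8, neutrophil collagenase, had 156 CPM in mutant and 62.5 CPM in control cells (1.29, 0.62 to 2.07). The lowest in that ranking was Cd69, an early activation antigen, with 11.3 CPM in 6 mutant cells and 91.0 CPM in 12 control cells (-2.92, -4.56 to -1.74). Of its 32 control UMIs 15 came from 1 cell, and over all members its log2 ratio was 0.69. Rgs1, a regulator of G protein signalling, had 84.4 CPM in mutant and 225 CPM in control cells (-1.40, -1.97 to -0.87), and Ddit4, a stress-induced inhibitor of mTOR, had 26.3 CPM in mutant and 73.9 CPM in control cells (-1.47, -2.54 to -0.50). The replication genes Mcm6, with 31.9 CPM in mutant and 85.3 CPM in control cells, and Dut, with 35.7 CPM in mutant and 93.8 CPM in control cells, were lower as well.

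The 2 antigen-display lists held 0 genes at least 2-fold apart over all members. Of all 8078 genes at a mean of at least 10 CPM, 4.36% were higher and 4.70% lower, with a median of -0.04. The counts are a description. The MHC class II list had 0 of 13 measured genes at least 2-fold apart, a median of -0.24 and a summed level of 4957 CPM in the mutant and 5888 CPM in the control members. H2-Eb1 had 470 CPM in mutant and 539 CPM in control members (-0.20, -0.43 to 0.03) and Cd74 had 1375 CPM in mutant and 1720 CPM in control members (-0.32, -0.45 to -0.19). These ratios changed sign between settings: that of H2-Aa was -1.01 in female-type cells and 0.51 at equal subcluster weights. The MHC class I list had 0 of 10 measured genes that far apart and a median of 0.33.

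Counts for the monocyte and dendritic lists stand beside the shares over all genes and are a description. At a mean of at least 10 CPM, 4.36% of 8078 genes were higher and 4.70% lower over all members. Without subclusters 2, 4 and 7, 4.41% of 7578 genes were higher and 6.11% lower. The classical monocyte list had 0 of 16 measured genes at least 2-fold apart, with a median of 0.15, and without those subclusters 3 of 16 were higher and 0 lower, with a median of 0.36. Its genes with the largest ratios were Ccl9, a chemokine, at 638 CPM in mutant and 338 CPM in control members (0.91, 0.66 to 1.18), and Klf4, a transcription factor of monocytes, at 187 CPM in mutant and 287 CPM in control members (-0.62, -0.96 to -0.28). The patrolling list had 1 of 11 higher, Spn, which encodes CD43, at 48.4 CPM in mutant and 21.4 CPM in control members, and 1 lower, Pou2f2, the factor OCT2, at 162 CPM in mutant and 332 CPM in control members (-1.03, -1.37 to -0.70). The common dendritic list had Cd24a higher, at 27.0 CPM in mutant and 10.7 CPM in control members, and Itgax, the integrin CD11c, lower, at 16.9 CPM in mutant and 55.6 CPM in control members (-1.70, -2.74 to -0.75). Its median over 10 genes was -0.31 over all members, and -0.59 without those subclusters, where 1 was higher and 4 lower. Of 10 cDC1 genes 2 were higher, Naaa and Tlr3, and Irf8 had 255 CPM in mutant and 135 CPM in control members (0.91, 0.51 to 1.35). The median of these cDC1 genes was -0.16, and without those subclusters 4 of 11 were higher and 0 lower, with a median of 0.52. Of 7 cDC2 genes 2 were lower, Cd209a with 3 UMIs in mutant and 8 UMIs in control members, and Tnip3 with 5 UMIs in mutant and 12 UMIs in control members. Of 5 plasmacytoid genes 1 was higher and 1 lower (median 0.13), and of 3 genes of migratory dendritic cells 0 were apart (median 0.11).

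Most signalling lists held few genes 2-fold apart, and the chemokine and cytokine list held more. Of the 8078 genes with a mean of at least 10 CPM, 4.36% were higher and 4.70% lower. Of 15 growth factor receptor genes 0 were at least 2-fold apart, and Csf1r had 287 CPM in mutant and 362 CPM in control members (-0.34, -0.62 to -0.04). Flt3, the dendritic growth factor receptor, had 16.9 CPM in mutant and 27.8 CPM in control members (-0.73, -1.89 to 0.47). Of 12 chemokine receptor genes 1 was higher, S1pr4, a sphingosine 1-phosphate receptor, at 30.4 CPM in mutant and 10.7 CPM in control members. Of 15 pattern recognition genes 1 was higher, the endosomal receptor Tlr3, and 1 lower, Tlr13, with a median of 0.09. Of 12 Fc and complement receptor genes 0 were higher and 1 was lower, Itgax, with a median of -0.24. Of 16 integrin and adhesion genes 1 was higher, Itga1, and 1 lower, again Itgax, with a median of 0.06. Of 13 chemokine and cytokine genes 3 were higher and 2 lower, with a median of 0.47, which was 0.21 without subclusters 2, 4 and 7. Among them Osm, oncostatin M, stood at 75.4 CPM in mutant and 23.5 CPM in control members (1.63, 0.75 to 2.75). Ccl2 stood at 18.0 CPM in mutant and 40.7 CPM in control members (-1.17, -2.23 to -0.14). Of 23 myeloid transcription factor genes 0 were apart, among them Spi1, the factor PU.1, at 398 CPM in mutant and 443 CPM in control members. The lists for lysosome, NADPH oxidase, interferon, glycolysis and oxidative phosphorylation had at most 1 gene each apart, with medians between -0.19 and 0.07. Of 22 immediate early and dissociation genes 2 were higher, Ccl4 and Ier3, and 1 lower, Dnajb1, with a median of -0.08. Ier3, a stress-induced survival gene, had 189 CPM in mutant and 79.2 CPM in control members over all members, and 39.4 CPM in mutant and 54.0 CPM in control members without subclusters 2, 4 and 7.

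Lists of other cell types were counted as well, beside shares of 4.36% higher and 4.70% lower among all 8078 genes at that floor of 10 CPM. Of 7 macrophage genes measured in the members 0 were higher and 1 was lower, Trem2, at 59.6 CPM in mutant and 120 CPM in control members (-1.01, -1.58 to -0.44). Of 6 granulocyte genes 0 were apart (median 0.00), and of 6 progenitor genes 1 was higher, Cpa3 (median -0.37). Of 5 endothelial genes 0 were higher and 1 was lower, Pecam1, which the rule limited (median -0.46). Of 11 interstitial genes 1 was higher, Dlk1, at 99.0 CPM in mutant and 32.1 CPM in control members, and 1 lower, Hapln1 (median 0.25). The only measured platelet gene, Itgb3, stood at 24.8 CPM in mutant and 10.7 CPM in control members (1.11, -0.23 to 2.97).

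Cell cycle lists showed a higher sum over all members. Among all 8078 genes at a mean of at least 10 CPM, 4.36% were higher and 4.70% lower. Without subclusters 2, 4 and 7 the shares were 4.41% higher and 6.11% lower. The G2 and M phase list summed to 3201 CPM in the mutant and 2217 CPM in the control members, with 1 of 23 genes at least 2-fold higher. The sums were 1786 CPM in mutant and 2085 CPM in control macrophages, and 4880 CPM in mutant and 3005 CPM in control granulocytes. The S phase list had 2 of 17 genes higher and 1 lower, a median of 0.45, and 796 CPM in the mutant and 723 CPM in the control members. Without subclusters 2, 4 and 7 the G2 and M phase list summed to 2545 CPM in the mutant and 2234 CPM in the control members. The S phase list then summed to 561 CPM in the mutant and 742 CPM in the control members, with 0 of 17 genes higher and 3 lower.

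Dicer1, which cuts microRNA precursors into mature microRNAs, was low in the members. It had 32 UMIs in 23 mutant cells and 15 UMIs in 14 control cells, 36.0 CPM in mutant and 32.1 CPM in control members, a log2 ratio of 0.14 (-0.76 to 1.16). The reads come from the 3′ ends of transcripts and the labels do not say which exons are flanked by loxP, so this level checks nothing about the deletion. Dicer1, at chr12:104687742-104751952, stood at 48.5 CPM in mutant and 50.1 CPM in control macrophages. Nfatc1 had 28.1 CPM in the mutant and 40.7 CPM in the control members (-0.54, -1.45 to 0.41), beside 34.1 CPM in all other kept mutant and 47.4 CPM in all other kept control barcodes. Of 19 measured genes listed as targets of the let-7 microRNAs, 0 were higher by 2-fold or more and 1, Cdc25a, lower, and the median was 0.06. Of 9 measured genes of microRNA biogenesis 0 were apart, with a median of -0.22. Of all 8078 genes at the same floor of 10 CPM, 4.36% were higher and 4.70% lower. Nothing is read from these 2 counts. By counting error alone, log2 ratios of Dicer1 from -0.76 to 1.16 are compatible with these counts.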

How the data were processed

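Single-cell libraries of the 10x Genomics 3′ kit were analysed, 1 per genotype. The authors deposited unnormalized count matrices (UMIs by gene and barcode) written by Cell Ranger 5.0.0, per the file headers, and the genome build was mm10, per the submitters' processing notes. Counting options and the authors' barcode filter are not given in the sources used here. Median depth of the members was 7677 UMIs in the mutant and 4929 UMIs in the control library.

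Barcodes were filtered as stated with the rule, and doublets were called with Scrublet in scanpy 1.11.5 but kept, with their removal as an alternative. UMIs were summed over members of a library and scaled to CPM. Log2 ratios are mutant over control with 0.5 counts added, with exact conditional Poisson intervals at 95%, and the code was tested on simulated counts. These intervals and the limit from 3 counts cover counting error only. Genes were called by fold alone, since 1 library per genotype allows no test.

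Members were clustered with Leiden (resolution 1.0) on 1000 variable genes, 15 components and 10 neighbours. Named genes were the rule's genes with Dicer1, Nfatc1 and Ptprc, the 12 highest and 12 lowest ratios at a mean of at least 50 CPM, up to 4 genes per list with the largest ratios at a mean of at least 10 CPM, 10 each way against macrophages, and 10 leading genes per subcluster. For the 12 and 12, the higher CPM had to reach 0.5 times that of all other kept barcodes, and erythroid, mitochondrial, ribosomal protein, sex-linked marker and unnamed predicted genes were left out. These limits held back 5 of the higher and 13 of the lower genes. Genes of class II-positive cells, those named without subclusters 2, 4 and 7, and genes behind counts of 5 or fewer were chosen after their values were seen. Members and lists were chosen with earlier results of these data known. The 38 lists held 537 symbols, of which 2 are not in the files. Coordinates are from GENCODE M21 on GRCm38, promoters from RefSeq. Alternatives changed the barcode filter, the rule's limits, doublets, depth, scaling, level floor, sex and subcluster makeup.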

Additional observations from a re-analysis of the deposited data

How the results depend on the processing

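The members' share of kept mutant barcodes was 1.59% and moved to 1.03% without subclusters 2, 4 and 7, a set chosen after seeing the data; all other alternatives kept it between 1.47% and 1.81%. Genes at least 2-fold higher in the mutant library numbered 35, against 23 without those subclusters, 23 at the same subcluster weights, 80 in female-type cells, 103 with cells thinned to 2000 UMIs, 136 and 17 at floors of 20 and 100 CPM, and 1411 with no floor. Lower genes numbered 28, against 81 in female-type cells, 124 when thinned, 167 and 14 at floors of 20 and 100 CPM, and 1774 with no floor. The higher count stayed within 1.5 times under 7 other alternatives and the lower count under 9. Without subclusters 2, 4 and 7 the log2 ratio turned to 0.19 for Ckm, -1.27 for Ifitm1, -1.70 for Ikzf2, 0.48 for Tnnt2 and 0.08 for Ttn. Ifitm1 turned to -0.12 at the same subcluster weights, and Cpa3 and Trbc1 to -0.22 each with a marker sum of at least 2, which gave 106 mutant and 87 control members. The cause was not tested. Of the ratios of named genes under alternatives, 506 stayed within their counting interval, 83 moved out of it and 8 turned to the opposite sign. The 8 turns above are of genes at least 2-fold apart. Ratios nearer 0, such as those of Cd69, Irf8 and the class II genes, also changed sign. Genes at 3 or fewer UMIs in both libraries under an alternative got no ratio there. Thinning left out 1 mutant and 3 control cells. No paired analysis was possible because there is 1 library per genotype, which also leaves no replicate to leave out. Depth limits Dicer1 and other genes under 50 CPM, and pool and genotype cannot be told apart.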
